A study of Arabidopsis thaliana with 24 samples.

Results

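The cytochrome P450 genes examined here are the 35 probe sets, of 22746 tested on the Affymetrix ATH1 array, that were matched to a single gene with a systematic P450 symbol: CYP, a family number, a subfamily letter and a gene number. The values come from Arabidopsis thaliana plants of the Columbia background grown for 7 days on solid Johnson medium with 2% sucrose. Wild type plants had either 2 mM phosphate (+Pi) or 0 mM (−Pi), and plants labelled phr1 and phr1 phl1 were measured at −Pi. Shoots and roots were taken separately, which gives 8 groups of 3 arrays and 24 arrays in all. Mutants at +Pi are not analysed here, so a mutant difference at −Pi cannot be split into a part that is present at +Pi and a part that depends on starvation. PHR1 and PHL1 are related MYB transcription factors of the Pi starvation response, and phl1 carries a T-DNA insertion and came from a mutant collection. The methods name independent replicates collected over about 2 months.

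Cytochromes P450 are haem enzymes. Most of them split molecular oxygen and insert an oxygen atom into a substrate, with electrons passed on from NADPH by a partner reductase. Plants hold very large numbers of them. They work in the making of sterols, carotenoids, lignin, waxes, hormones and defence compounds, and many subfamilies have grown by tandem duplication, so that close relatives stand side by side on a chromosome. The symbol tells how similar the proteins are and not what an enzyme does, and for many members of large subfamilies such as CYP71B no substrate is established. RNA levels say nothing of enzyme activity.

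The 35 members belong to 11 P450 families, and 18 of them are in the single subfamily CYP71B. RefSeq lists 225 Arabidopsis genes with a symbol of this form, so most of the family is not named here. Neighbouring members, with no more than 10 coding genes between one and the next, form 5 runs that together hold 24 of the 35. A run of 11 CYP71B genes lies on chromosome 3 (CYP71B16, CYP71B21 to CYP71B26 and CYP71B34 to CYP71B37, loci AT3G26150 to AT3G26330). A run of 6 on chromosome 4 joins CYP702A2 and CYP702A3 with CYP705A1 to CYP705A4 (AT4G15300 to AT4G15380). CYP71B27, CYP71B28 and CYP71B29 form a run of 3 on chromosome 1, CYP96A1 and CYP81D6 a run of 2 on chromosome 2, and CYP71B5 and CYP71B31 a run of 2 on chromosome 3. RefSeq lists 2 members, CYP71B27 and CYP51G2, as transcribed pseudogenes, and the CYP81D6 probe set is of a type whose probes also match similar transcripts. How well the other probe sets separate close relatives was not tested.

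The deposited values are RMA signals on a log2 scale, in which 1 unit is a 2-fold difference. A value is a level within one probe set, and levels of different probe sets cannot be set against each other. Every array had a mean correlation between 0.968 and 0.994 with the other arrays of its group, and array medians lay between 5.12 and 5.40. The lowest median was that of WT shoot −Pi replicate 2, whose mean correlation was 0.969. The lowest correlation was that of phr1 shoot −Pi replicate 2. Of 11 organ markers looked up, 3 had a matched probe set. The signal of the shoot marker RCA (Rubisco activase) was 12.25 to 12.91 in shoots and 6.33 to 8.85 in roots. Both matched root markers were higher in wild type roots than in shoots, EXPA7 by log2 3.07 and PYK10 by 1.64 at +Pi. At −Pi the differences were 3.25 for EXPA7 and 0.91 for PYK10, the latter under 2-fold. The PHL1 probe set read 7.06 to 8.36 on the shoot arrays with the label phr1 phl1 and 8.55 to 9.31 on the root arrays of that genotype, against 4.34 to 6.06 on all other arrays, and the position of its probes with respect to the insertion is not given in the sources used here. No probe set was matched to PHR1. The name phr1 phl1 therefore stands for the label below.

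Many P450 members gave little signal. Counted over all 24 arrays, 14 of the 35 had a mean within the dimmest 25% of all probe sets, and no array of these 14 read above 4.63. They were CYP71B16, CYP71B21, CYP71B24, CYP71B25, CYP71B27, CYP71B31, CYP71B36, CYP71B38, CYP702A3, CYP705A2, CYP705A3, CYP79A2, CYP81D6 and CYP96A15. CYP79A2, which turns phenylalanine into its oxime for benzyl glucosinolate, and CYP96A15, a mid-chain alkane hydroxylase of stem wax, were among them, as was CYP71B31, a linalool oxidase of flowers. A change in a probe set of this kind may be too small to see on the array.

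A probe set was counted as changed when its fold change exceeded 2 and its adjusted p was below 0.05 in limma (Benjamini-Hochberg over all 22746 probe sets within the comparison), and standard errors come from that fit. By this measure 12 of the 35 members (34.3%) changed in at least 1 of the 8 comparisons of Pi supply or genotype, beside 27.6% of all probe sets, and 23 did not. All 14 dim members and 9 brighter ones were among the 23. In tissue RNA of this kind, fewer cells that express a gene and less RNA per cell cannot be told apart.

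In wild type shoots, Pi starvation raised 5 members, against 8.26% of all probe sets, and lowered 4, against 7.95%. CYP81D1, CYP71B26, CYP71B37, CYP71B6 and CYP78A9 rose, and CYP71B22, CYP97A3, CYP97B3 and CYP71B34 fell. Their range ran from log2 −2.53 for CYP71B22 to 2.23 for CYP81D1, and the median of the 35 members was −0.01 beside −0.04 for all probe sets. In wild type roots 3 members rose (CYP71B23, CYP78A9 and CYP71B28), against 3.05% of all probe sets, and 0 fell, against 1.64%. Members with an unadjusted p under 0.05 in either direction numbered 15 in shoots and 11 in roots. The share of all probe sets at this unadjusted level was not computed, so such counts, here and below, cannot be set against it. CYP705A1 was the member lower in starved roots by adjusted p alone. The medians in roots were 0.06 for the members and −0.01 for all.

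Relative to wild type at −Pi, 5 members were lower in phr1 shoots (6.63% of all probe sets) and 0 were higher (6.48%), while 13 had an unadjusted p under 0.05. In roots 1 member was lower in phr1 (0.919%) and 0 were higher (1.49%), with 4 at an unadjusted p under 0.05. In phr1 phl1, 5 members were lower in shoots (8.2%) and 1 was higher (8.24%), with 14 at an unadjusted p under 0.05. In phr1 phl1 roots 2 were lower (2.19%) and 0 higher (3.45%), with 11 at an unadjusted p under 0.05. The members lower in shoots were the same in both mutants, namely CYP81D1, CYP71B26, CYP71B37, CYP96A1 and CYP78A9. The Pi and mutant comparisons share the wild type −Pi arrays, and the mutant comparisons share them with each other, so a high or low value there moves all of them at once.

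**Figure D1:**
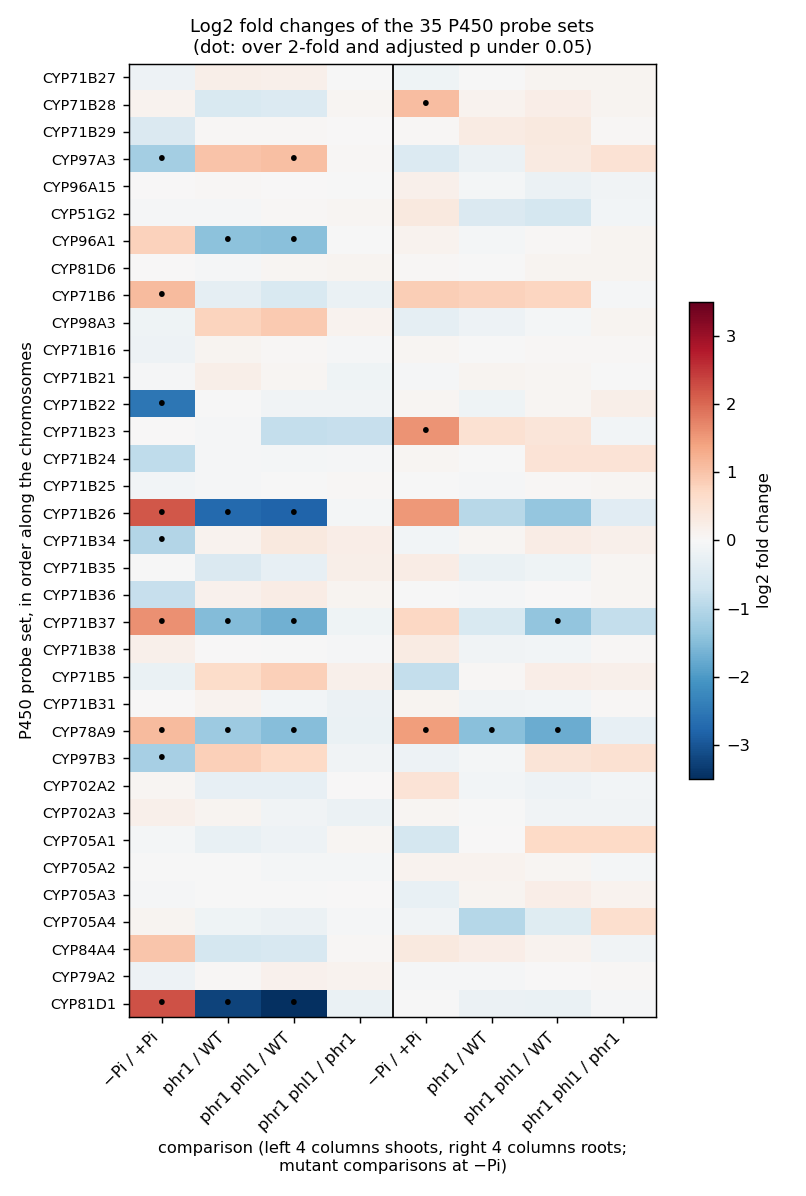
Log2 fold changes (colour scale) of the 35 P450 probe sets, in order along the chromosomes, in the Pi and genotype comparisons of shoots (left 4 columns) and roots (right 4 columns), with a dot where a probe set changed more than 2-fold at an adjusted p below 0.05. Most lines are pale, and the strongest colours are those of CYP81D1, CYP71B26 and CYP71B22 in shoots, while CYP78A9 is coloured in both organs.

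CYP78A9 was the only member called for Pi supply and for both mutants in shoots as well as in roots. It belongs to a small group of P450s that promote growth of plant organs, and in Arabidopsis it is known for its effect on fruit and ovule size. Its signal in wild type shoots was 4.76, 5.08 and 4.63 at +Pi and 5.91, 5.53 and 6.36 at −Pi. At −Pi it read 5.14, 4.44 and 4.45 in phr1 shoots and 4.30, 4.26 and 4.76 in phr1 phl1 shoots. All starved wild type shoots lay above all other shoots, and both mutants overlapped with well-fed wild type shoots. The same order was seen in roots, with 4.47, 4.81 and 4.78 in wild type at +Pi and 6.06, 6.43 and 5.98 at −Pi. Starved roots read 4.59, 4.81 and 4.69 in phr1 and 4.51, 4.31 and 4.43 in phr1 phl1, again with no overlap with the starved wild type. CYP78A9 thus rose at −Pi by log2 1.11 in shoots (standard error 0.209, adjusted p = 0.000267) and 1.47 in roots (adjusted p = 5.63e-05). Against wild type at −Pi it was lower in phr1, with log2 differences of −1.26 in shoots and −1.46 in roots, and in phr1 phl1, with −1.49 and −1.74 (adjusted p from 5.48e-06 to 0.000124). The rise in shoots came to 0.90, under 2-fold, without WT shoot −Pi replicate 3. Shoots and roots did not differ beyond their spread at either Pi supply (log2 −0.14 and 0.22), and the difference between the Pi responses of the organs was 0.36 with a standard error of 0.295 (adjusted p = 0.477).

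CYP81D1 showed the widest range of any member in the mutant comparisons, and its changes were in shoots. Its substrate is not given here. Wild type shoots read 4.93, 5.38 and 4.88 at +Pi and 7.33, 6.83 and 7.71 at −Pi. In starved mutant shoots the signal was 3.97, 4.07 and 4.09 in phr1 and 3.72, 4.29 and 3.42 in phr1 phl1. These mutant values lay below those of wild type shoots at +Pi, with no overlap. Roots of every group read 3.09 to 3.94, with group means between the 14.6th and 22.4th percentile of all probe sets. A fall in roots this dim may be too small to see. The rise at −Pi in wild type shoots was log2 2.23 (standard error 0.232, adjusted p = 2.43e-07), and the difference from wild type was −3.25 in phr1 (adjusted p = 2.39e-09) and −3.48 in phr1 phl1 (adjusted p = 5.78e-10). In roots the matching values were −0.02, −0.19 and −0.23, none past the test. The organs differed in both responses by the test of the difference itself: −2.25 for the Pi response and 3.26 for the phr1 phl1 effect, both as roots minus shoots (standard error 0.328, adjusted p = 6.91e-05 and 6.99e-07). The root side of both differences rests on the dim root values.

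CYP96A1, of a family that holds fatty acid and alkane hydroxylases, was also a shoot signal that was lower in both mutants. Its wild type shoot values were 4.15, 5.10 and 4.26 at +Pi and 5.28, 4.75 and 5.86 at −Pi, so that replicate 2 of each group fell into the range of the other. The mutant shoots read 3.73, 3.80 and 4.00 in phr1 and 3.75, 4.02 and 3.70 in phr1 phl1, all under every wild type shoot. Roots lay between 3.25 and 3.75 throughout, with group means between the 20.6th and 23.8th percentile of all probe sets, where a fall may be too small to see. The Pi response in shoots was log2 0.79 (adjusted p = 0.0129), under 2-fold, while the mutant differences were −1.45 in phr1 (standard error 0.240, adjusted p = 8.01e-05) and −1.47 in phr1 phl1 (adjusted p = 5.21e-05). For phr1 phl1 the effect in roots differed from that in shoots by 1.5 (adjusted p = 0.00268). CYP81D6, the other member of this run of 2, read 3.04 to 3.55 in all arrays.

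Of the carotenoid hydroxylases, CYP97A3 is the enzyme that hydroxylates the beta ring on the way to lutein, and CYP97B3 is a related carotenoid hydroxylase. Both fell in starved shoots. CYP97A3 read 8.49, 8.85 and 8.73 in wild type shoots at +Pi and 7.77, 7.09 and 7.64 at −Pi, then 8.68, 8.22 and 8.59 in phr1 and 8.66, 8.59 and 8.39 in phr1 phl1. The starved wild type shoots were the low group and did not overlap with any other shoot group. CYP97B3 read 7.81, 8.21 and 8.07 at +Pi and 6.94, 6.60 and 7.06 at −Pi in wild type shoots, with 7.73, 7.83 and 7.55 in phr1 and 7.58, 7.37 and 7.75 in phr1 phl1. Here too the starved wild type shoots were apart and low.

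The fall at −Pi was log2 −1.19 for CYP97A3 (standard error 0.191, adjusted p = 4.96e-05) and −1.16 for CYP97B3 (standard error 0.166, adjusted p = 1.30e-05). Without WT shoot −Pi replicate 2 the value of CYP97A3 was −0.98, just under 2-fold. CYP97A3 was higher than wild type in phr1 phl1 shoots by 1.05 (adjusted p = 0.000181), a value that came to 0.84 without WT shoot −Pi replicate 2 and 0.99 without phr1 phl1 shoot −Pi replicate 1. Its difference in phr1 shoots was 0.99 (adjusted p = 0.000382), and those of CYP97B3 were 0.84 in phr1 and 0.70 in phr1 phl1 (adjusted p = 0.000514 and 0.00206), all past the adjusted p and short of 2-fold. In roots CYP97A3 read 5.08 to 6.22 in wild type and CYP97B3 5.26 to 5.88, and the Pi response was −0.49 and −0.17 (adjusted p = 0.111 and 0.606). For CYP97B3 the response of roots differed from that of shoots by 0.99 (adjusted p = 0.00501). In the phr1 phl1 roots these members read 5.45 to 5.64 and 5.76 to 6.13, or 0.31 and 0.46 above starved wild type roots (adjusted p = 0.401 and 0.0789). RCA, the shoot marker, read 8.09 to 8.85 in the same phr1 phl1 roots against 6.33 to 6.65 in starved wild type roots, a difference of 1.84 (adjusted p = 4.28e-05), while the root markers EXPA7 and PYK10 differed by −0.17 and 0.16. The part of shoot-type RNA in the root values of the carotenoid hydroxylases was not tested.

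CYP71B6 oxidises indole-3-acetonitrile to indole-3-carbaldehyde in the breakdown of indole compounds. Its signal in wild type shoots was 8.08, 7.89 and 8.07 at +Pi and 9.09, 9.16 and 9.12 at −Pi, 2 tight groups that did not overlap. Starved mutant shoots read 8.70, 9.22 and 8.53 in phr1 and 8.41, 8.69 and 8.68 in phr1 phl1, so that phr1 overlapped with the wild type and phr1 phl1 lay under it. In roots it read 8.37, 8.5 and 8.17 at +Pi, 9.07, 9.57 and 9.0 at −Pi, 9.68, 9.80 and 10.54 in phr1 and 9.73, 10.18 and 9.94 in phr1 phl1. Every mutant root was above every wild type root. The Pi response was log2 1.11 in shoots (standard error 0.206, adjusted p = 0.000226) and 0.87 in roots (adjusted p = 0.00738). Mutant roots were higher by 0.79 in phr1 (adjusted p = 0.0248) and 0.74 in phr1 phl1 (adjusted p = 0.0190), whereas in shoots the values were −0.30 and −0.53 (adjusted p = 0.310 and 0.0503). Of these values only the shoot Pi response was over 2-fold. The phr1 phl1 effect differed between roots and shoots by 1.27 (standard error 0.291, adjusted p = 0.00297).

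**Figure D2:**
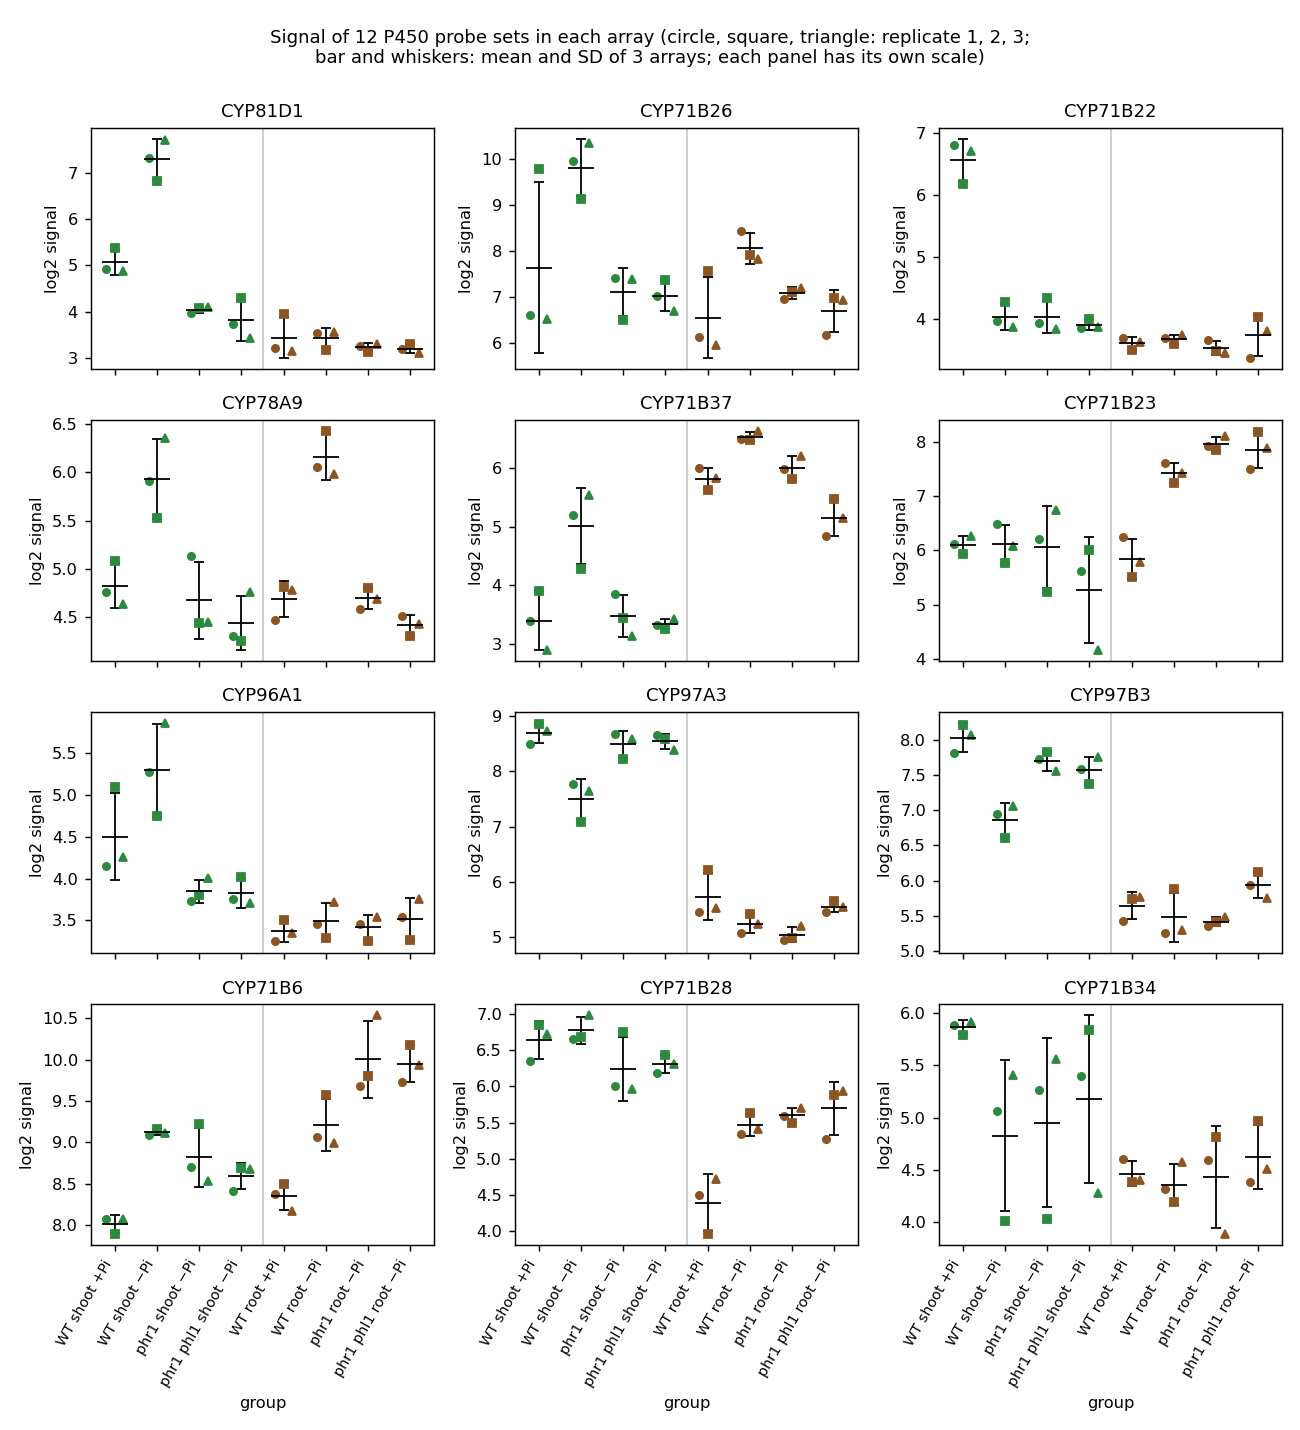
Log2 signal in each array (points, with replicate 1, 2 and 3 as circle, square and triangle) and the mean and SD of 3 arrays (bar and whiskers) for the 12 P450 members that changed in at least 1 Pi or genotype comparison, with shoots in green and roots in brown. CYP78A9 stands high in starved wild type shoots and roots, CYP81D1 in starved wild type shoots, CYP71B22 in wild type shoots at +Pi, and CYP71B26 has 1 well-fed shoot array at 9.79 beside 6.60 and 6.51.

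Of the 11 CYP71B neighbours in the run, 5 were called for Pi or genotype, beside 27.6% of all probe sets so called. Neighbours went opposite ways. In wild type shoots 2 of the 11 rose at −Pi (CYP71B26 and CYP71B37), beside 8.26% of all probe sets, and 2 fell (CYP71B22 and CYP71B34), beside 7.95%. In roots 1 rose (CYP71B23), beside 3.05%. Whether the run differs from these shares was not tested. The median of the run was log2 −0.10 in shoots and 0.07 in roots. For none of these 5 genes is a substrate given here.

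CYP71B22 read 6.81, 6.18 and 6.70 in wild type shoots at +Pi and 3.97, 4.27 and 3.87 at −Pi, the widest fall of any member. The mutant shoots at −Pi read 3.93, 4.33 and 3.84 in phr1 and 3.86, 4.00 and 3.86 in phr1 phl1, within or next to the starved wild type values. Roots read 3.37 to 4.03 in all groups, with group means between the 24.8th and 28.4th percentile of all probe sets. A fall in roots this dim may be too small to see. The well-fed wild type shoots were therefore the high group and starved wild type shoots lay just above starved wild type roots (3.59 to 3.73). The Pi response in shoots was log2 −2.53 (standard error 0.170, adjusted p = 6.46e-10), that in roots 0.07 (adjusted p = 0.874), and their difference 2.59 (adjusted p = 4.93e-07). The differences of phr1 and phr1 phl1 shoots from wild type had adjusted p = 0.996 and 0.630, with −0.13 for phr1 phl1 and the same standard error of 0.170.

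CYP71B26 rose in starved shoots by the fit, with 1 array out of line. Wild type shoots read 6.60, 9.79 and 6.51 at +Pi and 9.97, 9.13 and 10.36 at −Pi, so that well-fed replicate 2 lay inside the starved range. Starved mutant shoots read 7.41, 6.51 and 7.39 in phr1 and 7.02, 7.38 and 6.69 in phr1 phl1, all under every starved wild type shoot. Replicate 2 was also the high one of the wild type roots at +Pi, which read 6.13, 7.56 and 5.96, against 8.44, 7.92 and 7.82 at −Pi. The phr1 roots read 6.95, 7.10 and 7.20, and the phr1 phl1 roots 6.16, 6.97 and 6.94. Starved wild type roots were thus above all other roots without overlap. The shoot marker RCA read 7.75 in WT root +Pi replicate 2, against 6.61 and 6.46 in replicates 1 and 3. The part of shoot-type RNA in the CYP71B26 value of that array was not tested.

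For CYP71B26 the Pi response in shoots was log2 2.18 (standard error 0.615, adjusted p = 0.00805). Without WT shoot +Pi replicate 2 it was 3.26 (adjusted p = 5.52e-06), and it lost its call without replicate 1 or 3 of that group (1.67 and 1.62, adjusted p = 0.0595 and 0.0631) and when only those 6 arrays were fitted (adjusted p = 0.115). The differences in phr1 and phr1 phl1 shoots were −2.72 and −2.79 (adjusted p = 0.00171 and 0.00109). In roots the Pi response was 1.51 and the mutant differences −0.98 and −1.37, with adjusted p = 0.130, 0.540 and 0.184. The organs were not shown to differ in the Pi response (−0.67, standard error 0.870, adjusted p = 0.676) or in the phr1 phl1 effect (1.43, adjusted p = 0.280).

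CYP71B37 read 3.40, 3.90 and 2.90 in wild type shoots at +Pi and 5.20, 4.28 and 5.53 at −Pi, against 3.86, 3.45 and 3.14 in phr1 and 3.33, 3.25 and 3.42 in phr1 phl1 at −Pi. Starved wild type shoots were above all other shoots. Roots were brighter in every group, with 6.0, 5.63 and 5.83 at +Pi and 6.49, 6.48 and 6.63 at −Pi in wild type, 5.98, 5.82 and 6.21 in phr1 and 4.85, 5.46 and 5.15 in phr1 phl1. Among starved roots the order was wild type, phr1 and phr1 phl1, and the 3 groups did not overlap. The rise in shoots was log2 1.61 (standard error 0.267, adjusted p = 7.24e-05) and the mutant differences there were −1.52 and −1.67 (adjusted p = 0.000148 and 4.25e-05). In roots the Pi response was 0.71 (adjusted p = 0.0958), the phr1 difference −0.53 (adjusted p = 0.376) and the phr1 phl1 difference −1.38 (adjusted p = 0.00113). The step from phr1 to phr1 phl1 in roots was −0.85 with an adjusted p of 0.0928.

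CYP71B23 changed in roots. Wild type roots read 6.24, 5.51 and 5.79 at +Pi and 7.61, 7.24 and 7.42 at −Pi, and the mutant roots at −Pi read 7.93, 7.86 and 8.11 in phr1 and 7.50, 8.18 and 7.89 in phr1 phl1. All starved roots, mutant or not, lay above all well-fed ones. In shoots the signal was 5.93 to 6.26 at +Pi and 5.77 to 6.49 at −Pi in wild type, 5.24 to 6.74 in phr1 and 4.17 to 6.02 in phr1 phl1. The Pi response was log2 1.58 in roots (standard error 0.377, adjusted p = 0.00795) and 0.01 in shoots (adjusted p = 0.988). Their difference of 1.56 had an adjusted p of 0.0469, which lay above 0.05 (up to 0.112) when most single arrays were left out.

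CYP71B34 stood at the edge of the test. It read 5.89, 5.79 and 5.92 in wild type shoots at +Pi and 5.06, 4.02 and 5.41 at −Pi, with 5.26, 4.04 and 5.56 in phr1 and 5.40, 5.84 and 4.28 in phr1 phl1. The starved groups each held 1 array near 4 and 2 above 5. Roots read 3.89 to 4.96. The Pi response in shoots was log2 −1.03 (standard error 0.396, adjusted p = 0.0467), and −0.63 (adjusted p = 0.262) without WT shoot −Pi replicate 2. The call was lost without any 1 of 5 of these 6 arrays. In the same run, CYP71B24 and CYP71B36, both dim, were lower in starved shoots by −0.88 and −0.80 (adjusted p = 2.74e-05 and 2.24e-06), short of 2-fold. CYP71B16, CYP71B21, CYP71B25 and CYP71B35 had shoot values from −0.17 to −0.01.

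**Figure D3:**
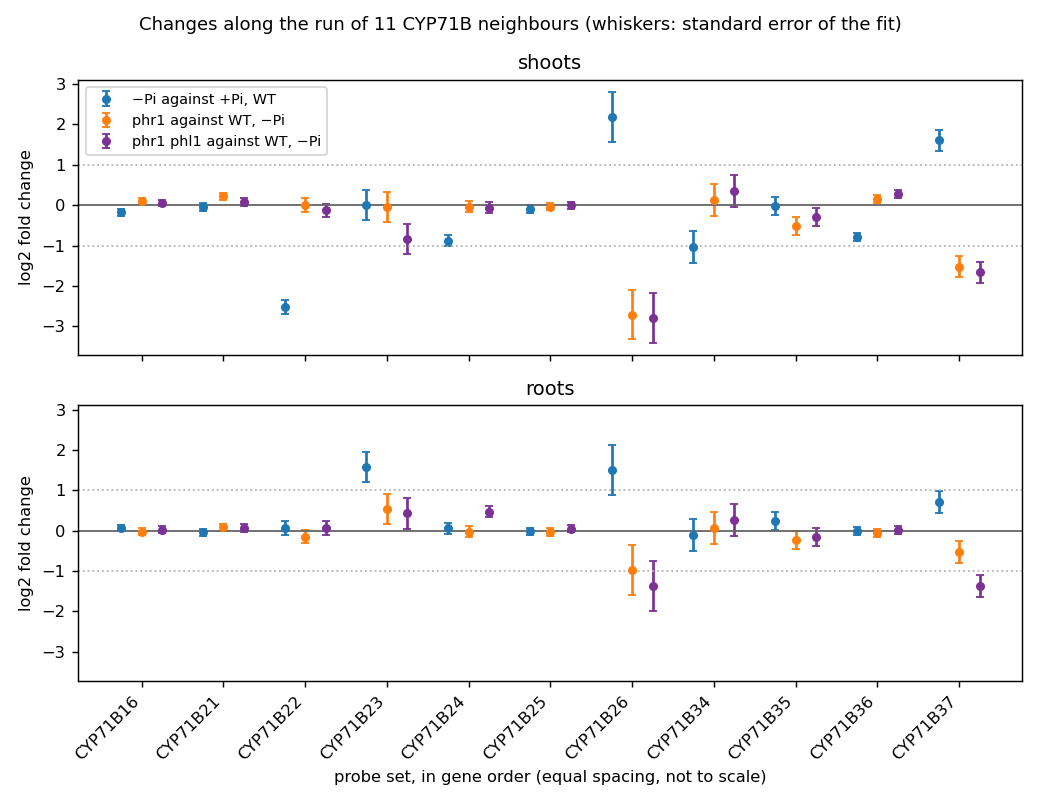
Log2 fold changes with standard errors along the run of 11 CYP71B neighbours, in gene order and not to scale, in shoots (upper panel) and roots (lower panel), for the Pi response of wild type and for each mutant against wild type at −Pi; dotted lines mark 2-fold. In shoots CYP71B22 falls to −2.53 while CYP71B26 and CYP71B37 rise to 2.18 and 1.61 and are negative in both mutants, and in roots CYP71B23 rises to 1.58.

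Outside that run, CYP71B28 on chromosome 1 rose in starved roots. It read 4.50, 3.96 and 4.73 in wild type roots at +Pi and 5.34, 5.64 and 5.42 at −Pi, and 5.27 to 5.94 in the mutant roots. Starved roots of every genotype were above the well-fed ones. Wild type shoots read 6.35 to 6.85 at +Pi and 6.66 to 6.98 at −Pi. The root response was log2 1.07 (standard error 0.219, adjusted p = 0.00224), and it was 0.85 without WT root +Pi replicate 2 and 0.98 without WT root −Pi replicate 2. The shoot response was 0.13, and the difference between organs 0.94 (adjusted p = 0.0402). CYP71B27 and CYP71B29, its neighbours, had root responses of −0.16 and 0.05.

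Several members passed the adjusted p without reaching 2-fold. CYP84A4, of arabidopyrone synthesis, read 4.59 to 4.92 in wild type shoots at +Pi and 5.67 to 5.84 at −Pi, a response of log2 0.98 (adjusted p = 0.000428), and was lower in phr1 by −0.60 and in phr1 phl1 by −0.57 (adjusted p = 0.0204 and 0.0241). CYP98A3, the p-coumaroyl shikimate 3′-hydroxylase of lignin synthesis, was higher in starved shoots of phr1 by 0.79 and of phr1 phl1 by 0.92 (adjusted p = 0.00282 and 0.000611), while its Pi response in wild type shoots was −0.16 (adjusted p = 0.566). Its phr1 phl1 effect differed between roots and shoots by −1.0 (adjusted p = 0.00964). CYP705A4 read 5.46, 5.16 and 5.19 in starved wild type roots and 4.32, 4.32 and 4.19 in phr1 roots, a difference of −1.0 just short of 2-fold (adjusted p = 0.00189). In phr1 phl1 roots it read 5.31, 4.83 and 4.41, and the difference from wild type was −0.42 (adjusted p = 0.172). CYP51G2, a relative of the sterol 14-demethylase gene, was lower in roots of phr1 by −0.50 and of phr1 phl1 by −0.60 (adjusted p = 0.00876 and 0.000780).

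CYP705A1 is known for cleaving the triterpene arabidiol in roots, which releases a volatile. Wild type roots read 5.53, 5.58 and 5.21 at +Pi and 4.87, 4.72 and 4.88 at −Pi, phr1 roots 4.62, 5.04 and 4.82, and phr1 phl1 roots 5.61, 5.61 and 5.34. The phr1 phl1 roots thus lay with the well-fed wild type and apart from both other starved groups. The Pi response in roots was log2 −0.62 (standard error 0.163, adjusted p = 0.0150), and phr1 phl1 was higher than wild type by 0.70 (adjusted p = 0.00550) and than phr1 by 0.69 (adjusted p = 0.0153), all under 2-fold. In the same roots the shoot marker RCA was higher in phr1 phl1 than in phr1 by 1.45 (adjusted p = 0.00182) and the root marker EXPA7 was lower by a log2 value of −1.06 (adjusted p = 0.0326), while PYK10 differed by −0.09 (adjusted p = 0.961). The part of these markers in the CYP705A1 result was not tested.

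Between phr1 phl1 and phr1 at −Pi no member was called. In shoots 0 members were higher (0.207% of all probe sets) and 0 lower (0.563%), with 2 at an unadjusted p under 0.05, and the values ran from log2 −0.79 (CYP71B23) to 0.22. In roots 0 were higher (0.98%) and 0 lower (0.809%), with 6 at an unadjusted p under 0.05. CYP705A1 and CYP71B24 (0.49, adjusted p = 0.0440) passed the adjusted p there, and the values ran from −0.85 for CYP71B37 to 0.69. RCA and EXPA7 moved in this root comparison by 1.45 and −1.06, and their part in these values was not tested. With a standard error of 0.232 for CYP81D1 and 0.209 for CYP78A9, their shoot differences of −0.23 and −0.23 were smaller than or close to the error of the comparison.

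Organ differences were more frequent than changes with Pi or genotype, among the members as among all probe sets. In well-fed wild type plants 4 members were higher in roots (11.6% of all probe sets) and 10 higher in shoots, that is lower in roots (11.7%). At −Pi, 5 were higher in roots (14.4%) and 7 lower (12.2%). Together 17 members (48.6%) differed at one Pi supply or both, beside 33.2% of all probe sets. Of the 17, 7 had no call in the Pi and genotype comparisons, and the matching share of all probe sets was not computed. The median over members was −0.13 at +Pi and −0.02 at −Pi, beside 0.03 and 0.04 for all probe sets.

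At +Pi the widest differences towards shoots were those of CYP97A3 (log2 −2.96, adjusted p = 6.87e-11), CYP71B22 (−2.96, adjusted p = 1.19e-11) and CYP97B3 (−2.38, adjusted p = 2.21e-10). CYP71B28 (−2.24), CYP71B5 (−2.12), CYP81D1 (−1.63), CYP71B34 (−1.40), CYP71B24 (−1.29), CYP71B35 (−1.25) and CYP96A1 (−1.13) followed, and the value of CYP96A1 was −0.83 without WT shoot +Pi replicate 2. Towards roots the widest were CYP71B37 (2.42, adjusted p = 2.17e-07), CYP705A4 (1.92, adjusted p = 3.16e-08) and CYP705A1 (1.49, adjusted p = 1.83e-07), with CYP98A3 at 1.35. In the run of 6 on chromosome 4, CYP705A4 read 5.01 to 5.82 in well-fed roots and 3.40 to 3.52 in shoots, and CYP705A1 5.21 to 5.58 and 3.85 to 4.04. Neither pair of groups overlapped, while CYP702A3, CYP705A2 and CYP705A3 in the same run differed by −0.04, 0.07 and 0.16. CYP702A2, the first gene of that run, was 0.91 higher in roots at +Pi and 1.32 at −Pi (adjusted p = 8.57e-06).

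Starvation moved the organ difference of some members. For CYP71B22 it went from −2.96 at +Pi to −0.37 at −Pi, and for CYP81D1 from −1.63 to −3.87, which are the same quantities as the differences in Pi response given above. CYP71B23 went from −0.25 to 1.31, CYP97B3 from −2.38 to −1.39 and CYP71B28 from −2.24 to −1.31. CYP71B26 was −1.09 (adjusted p = 0.161) and −1.76 (adjusted p = 0.0223), the latter lost in 4 of the settings without 1 array (adjusted p up to 0.0875). CYP71B5 kept −2.12 and −2.73, and its roots read 3.48 to 4.63 at +Pi and 2.94 to 3.27 at −Pi against 5.77 to 6.19 in wild type shoots. For the difference in Pi response between organs, 2 members were called higher in roots (4.68% of all probe sets) and 1 lower (5.82%). For the phr1 phl1 effect 3 were called higher (7.75%) and 0 lower (6.01%), with 11 at an unadjusted p under 0.05.

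**Figure D4:**
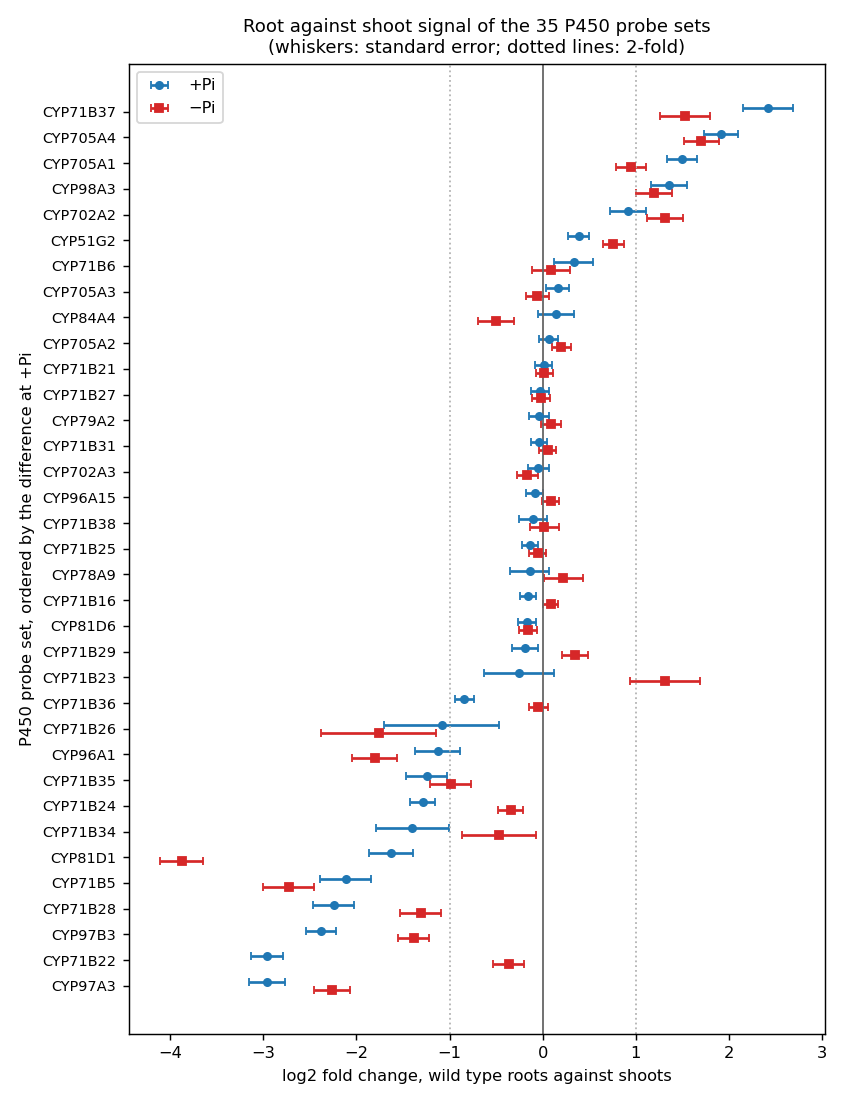
Log2 fold change of wild type roots against shoots with standard error, at +Pi (circles) and −Pi (squares), for the 35 P450 probe sets ordered by the value at +Pi; dotted lines mark 2-fold. CYP97A3 and CYP71B22 lie at −2.96 at +Pi, and CYP71B22 moves to −0.37 at −Pi while CYP81D1 moves from −1.63 to −3.87.

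Of 77 P450 genes and partners on lists of hormone, oxylipin, carotenoid, glucosinolate, phenylpropanoid, wax and organ growth pathways, 10 had a matched probe set, 7 of them members, so the pathways are covered thinly. The other 3 P450 genes carry a trivial name as their gene symbol. CYP74B2 (HPL1), a hydroperoxide lyase of oxylipin metabolism, read 3.94 to 5.30 in well-fed and 7.42 to 8.01 in starved wild type shoots, 3.77 to 4.18 in phr1 and 3.85 to 4.03 in phr1 phl1 shoots, and 3.02 to 3.55 in all roots. Starved wild type shoots stood apart from every other group. Its Pi response in shoots was log2 3.04 (adjusted p = 2.37e-09), and it was −3.64 in phr1 and −3.72 in phr1 phl1 shoots against wild type, values that can be set beside 2.23, −3.25 and −3.48 for CYP81D1. CYP90C1 (ROT3), of brassinosteroid synthesis, changed by 0.67 at −Pi in shoots and by −0.93 and −1.19 in phr1 and phr1 phl1 shoots, the last of them over 2-fold (adjusted p = 2.01e-07). In roots its Pi response was −0.54 (adjusted p = 0.00598), and the mutant differences were 0.10 and 0.09 (adjusted p = 0.830 and 0.787). As roots minus shoots, its Pi response differed by −1.21 and its phr1 phl1 effect by 1.28 (adjusted p = 6.24e-05 and 2.13e-05). CYP701A3 (GA3), the ent-kaurene oxidase of gibberellin synthesis, had no value over 2-fold in the Pi and genotype comparisons, with −0.44 in phr1 shoots the farthest from 0.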

How the data were processed

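The authors hybridised RNA of 3 replicates in each of 8 groups to ATH1 arrays and deposited log2 signals made with RMA, which corrects background, normalizes by quantiles between arrays and summarises the probes of a set. RMA draws dim signals together and assumes like distributions in shoots and roots. Samples were grouped by their titles. Of 22810 probe sets, 64 controls were left out. The 22746 that were left went into a linear model of 8 group means (limma 3.58.1, R 4.3.3, with 16 residual degrees of freedom), with Benjamini-Hochberg adjustment within each comparison and no block. The methods of the study use limma, 2-fold and an adjusted p of 0.05.

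Names came from the platform annotation and, where it gave none, from a locus in the study's supplementary lists. Together these gave 14203 probe sets 1 gene, 503 several and 8040 none. The platform annotation named 22 members, and the other 13 were named through such a locus and its RefSeq symbol. Where both sources gave a locus they were the same for 1087 of 1135 probe sets. The members, the lists and the rule for naming were chosen with earlier results of these data known. Values per array were given for members called in a Pi or genotype comparison. The model was also tested on simulated data. Whether replicate numbers pair the arrays was checked by correlating deviations from the group means: for shoots of phr1 and wild type at −Pi (0.50, 0.65 and 0.43) and for wild type roots and shoots at −Pi (0.27, 0.37 and 0.14) all 3 pairs were above 0.1. In each of the other comparisons at least 1 pair was lower. Pairs of the Pi comparisons lay between −0.04 and 0.05, and the lowest pair was −0.59, for phr1 phl1 and phr1 shoots. The numbers thus did not pair the arrays throughout. The labels give separate biological samples and no depth applies to arrays, whose number limits the precision. Alternatives were the replicate block, organs fitted separately, only the groups compared, dim probe sets left out, other scalings, a trended and robust variance, other thresholds and each array left out. No sequence was used.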

Additional observations from a re-analysis of the deposited data

Results flagged for a closer look

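For 7 of 35 members (20%) the response to Pi starvation differed between roots and shoots by the limma test of the difference itself (adjusted p under 0.05), a share close to the 18.5% of all probe sets. As roots minus shoots on the log2 scale, the differences were 2.59 for CYP71B22 (adjusted p = 4.93e-07), −2.25 for CYP81D1 (adjusted p = 6.91e-05), 0.79 for CYP71B36 (adjusted p = 0.000412), 0.95 for CYP71B24 (adjusted p = 0.00137), 0.99 for CYP97B3 (adjusted p = 0.00501), 0.94 for CYP71B28 (adjusted p = 0.0402) and 1.56 for CYP71B23 (adjusted p = 0.0469). For CYP71B28 and CYP71B23 the response passed the adjusted p in roots and not in shoots, and for the other 5 in shoots and not in roots. CYP71B22, CYP71B23, CYP71B24 and CYP71B36 stand in the run of 11 neighbours, which holds 11 of the 35 members. Root group means of CYP81D1, CYP71B24 and CYP71B36 lay within the dimmest 25% of all probe sets, where a fall may be too small to see. Those of CYP71B22 lay near this limit, between the 24.8th and 28.4th percentile.

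The phr1 phl1 effect at −Pi also differed between the organs for 7 members (20%), beside 23.8% of all probe sets. As roots minus shoots the differences were 3.26 for CYP81D1 (adjusted p = 6.99e-07), 1.5 for CYP96A1 (adjusted p = 0.00268), 1.27 for CYP71B6 (adjusted p = 0.00297), −0.64 for CYP51G2 (adjusted p = 0.00577), 0.88 for CYP705A1 (adjusted p = 0.00773), −1.0 for CYP98A3 (adjusted p = 0.00964) and 0.53 for CYP71B24 (adjusted p = 0.0477). CYP81D1 and CYP71B24 are in both sets, which share the wild type arrays at −Pi. The root group means of CYP81D1, CYP96A1 and CYP71B24 were dim in the same way. RCA, the shoot marker, had a difference of 1.51 in the same test (adjusted p = 0.00500), and its part in these values was not tested. Single outlying arrays were not tested in groups of 3.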

How the results depend on the processing

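Of 58 called values and organ differences of single members, each recomputed under the alternatives (804 values in all), 770 kept their direction and side of the threshold, 34 lost the call and 0 turned. The values that lost it were those of CYP71B34, CYP71B26, CYP71B23, CYP97A3, CYP78A9, CYP71B28 and CYP96A1 named with the results. The replicate block ended the call of CYP71B34 in shoots (adjusted p = 0.0587) and of CYP71B23 for the difference between organs (adjusted p = 0.0556), and changed no other call. Best-correlated arrays of other groups carried the same replicate number for 14 of 24 arrays. By adjusted p alone, with no limit on fold, the members changed by Pi were 14 in shoots and 5 in roots (37% and 12.1% of all probe sets), by phr1 9 and 4 (31.8% and 5.39%), by phr1 phl1 11 and 6 (37% and 13.1%), between phr1 phl1 and phr1 2 in roots (4.1%), and 7 for each difference between organs (18.5% and 23.8%). At 1.5-fold and an adjusted p under 0.1 they were 13 for Pi in shoots and 7 in roots (30% and 10.1% of all). Shoots and roots had 10 and 3 for phr1 (25.6% and 5.46%) and 10 and 5 for phr1 phl1 (30.1% and 11.4%). Between phr1 phl1 and phr1 there were 2 in roots (4.38%). For the organ differences in Pi response and phr1 phl1 effect they were 8 and 9 (20.3% and 25.3%). Leaving out 1 array at a time gave 7 to 10 members for Pi in shoots, 2 to 3 in roots, 5 to 6 and 1 to 2 for phr1, 6 to 7 and 2 for phr1 phl1, 14 to 15 and 11 to 14 between organs at +Pi and −Pi, and 2 to 5 and 3 to 6 for the differences between organs. Leaving out the 6 arrays labelled phr1 phl1, chosen after the data were seen, ended no call. Organs could not be fitted separately for comparisons across organs. With 3 arrays a group, dim probe sets and changes near 2-fold are the least certain.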
